A study of Mus musculus with 12 samples.

Results

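Transcripts of the mitochondrial genome, a small circular DNA with both strands transcribed, were examined here in mouse embryonic stem cells (ESCs), the wild-type V6.5 line and a Dgcr8 KO line. They were taken as every row of the deposited count table that lies on chromosome M, which gave 35 genes of 51559 in the table. These are 13 mRNAs and 22 tRNAs, 26 on the plus strand and 9 on the minus strand. The ribosomal RNA genes had been removed by the authors before counting. The samples were 3 wild-type and 3 Dgcr8 KO replicates, where Dgcr8 encodes a partner of the nuclease Drosha in making microRNAs. All were grown in serum medium with LIF and the 2i inhibitors PD0325901 and CHIR99021, and all received 4-thiouridine (4sU), a uridine analogue, at 500 uM for 30 min. RNA of each was divided into a captured 4sU fraction, which measures nascent RNA, and a total fraction depleted of rRNA, which gave 4 groups of 3 libraries. The knockout is a single previously made cell line, so its replicates carry no information on other lines. The labels do not say that replicates were cultured apart, so the spread between these samples may be technical. The SE and p-values of limma draw the spread of each gene toward a trend over all genes. They can therefore be smaller than the replicates of that gene alone would give.

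Mitochondrial RNA is made as long transcripts that start in the control region and run along either strand. Transcription of the heavy strand yields the plus-strand genes, which are the rRNAs, most tRNAs and all mRNAs but mt-Nd6, whereas transcription of the light strand yields mt-Nd6 and the remaining tRNAs. tRNAs lie between most mRNAs, and cutting them out releases the mRNAs, which encode subunits of respiratory complex I (Nd genes), complex III (Cytb), complex IV (Co genes) and the ATP synthase (Atp genes). The polymerase is POLRMT, and the stability, processing and decay of the products depend on proteins imported from the cytosol.

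Total counts per library ranged from 4593914 to 9295245. The libraries labelled Dgcr8 KO held 33.3 ± 1.09 CPM (library counts rescaled to a common total with TMM factors) of Dgcr8 in total RNA, against 101.6 ± 9.3 in wild type (SD, n = 3). All 8 ESC markers examined, among them Pou5f1, Sox2 and Nanog, passed the filter on low counts. Their summed levels were 5462 to 5546 CPM in wild-type and 6177 to 6840 CPM in Dgcr8 KO 4sU libraries. In total libraries they were 5062 to 5168 and 4996 to 5058 CPM. In Dgcr8 KO 6 of the 8 rose and 1 fell in 4sU RNA at a limma adjusted p under 0.05, against 28.3% and 28% of genes. In total RNA 3 rose and 5 fell, against 27.2% and 36.7%, all by less than 1 in log2. None of 7 fibroblast markers exceeded 2.51 CPM in any library. Of 4 endoderm markers only Gata4 passed the filter, and none exceeded 15.3 CPM. Of 3 primed or mesoderm markers only Mixl1 passed, and none exceeded 4.6 CPM. In 4sU RNA the log2 change in Dgcr8 KO was 0.52 for Gata4 and -0.94 for Mixl1. In total RNA it was 0.36 and 0.19, neither at an adjusted p under 0.05. RNA spike-ins gave 1 count in all 12 libraries together, so every level is relative to the rest of its library. In bulk samples such as these, fewer cells of a type and less RNA per cell cannot be told apart.

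Only part of the mitochondrial genome could be counted. No library held more than 1 count of mt-Co2, mt-Atp6, mt-Co3, mt-Nd3 or mt-Nd4l, and mt-Atp8 was at 0 throughout. Reads had been mapped uniquely, so a read that also occurs in the nuclear genome was discarded. To see which genes this touches, each run of 50 bases (the read length) of each mitochondrial gene was looked up in the annotated nuclear transcripts. For mt-Co2, mt-Atp6, mt-Co3, mt-Nd3 and mt-Nd4l, 97.99% to 100% of these windows occurred there. For each of these 5 genes 97.99% or more of the windows occurred in 1 of 7 neighbouring pseudogenes on chromosome 1 (mm10, 24611535 to 24616197), which together copy a stretch from within mt-Co1 to within mt-Nd4, and mt-Co2 also shared 224 windows with Gm13341 on chromosome 2. mt-Co2 and its copy Gm28661 did not differ at any of 681 aligned bases, and mt-Nd3 and its copy Gm28438 differed at 1 of 345. The first 60 aligned bases of these pairs are shown because they set what the count table can hold, with a base that differs between the copies in capitals.
mt-Co2: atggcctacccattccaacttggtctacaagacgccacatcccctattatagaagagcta
Gm28661: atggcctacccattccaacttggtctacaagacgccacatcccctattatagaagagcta
mt-Nd3: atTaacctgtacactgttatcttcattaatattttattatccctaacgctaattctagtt
Gm28438: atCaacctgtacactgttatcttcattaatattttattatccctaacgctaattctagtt
Of the 299 windows of mt-Nd3, 6 were not shared. The matching pseudogene Gm28438 held 34 to 49 counts in the 4sU libraries and 1 to 6 in the total libraries.

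The 7 remaining mRNAs were well counted, from 342 counts of mt-Nd6 in a total library to 87233 of mt-Nd1 in a 4sU library. mt-Nd1, mt-Nd6 and mt-Cytb shared no window with a nuclear transcript, mt-Nd5 and mt-Nd2 shared 7.61% and 8.19%, and mt-Co1 and mt-Nd4 shared 51.1% and 62.2%. The levels of mt-Co1 and mt-Nd4 per base of gene are therefore understated, whereas a comparison of either gene between libraries uses the same windows on both sides. mt-Atp8 had no window in an annotated nuclear transcript, and a genome sequence to search beyond the annotation was not used here. It lies between mt-Co2 and mt-Atp6, whose copies Gm28661 (24614885 to 24615565) and Gm10925 (24613974 to 24614651) are neighbours on chromosome 1. Whether the unannotated sequence between these copies matches mt-Atp8 was not tested. Of the tRNAs at 0 throughout, mt-Ts1, mt-Td, mt-Tk, mt-Tg and mt-Tr also lie between mt-Co1 and mt-Nd4, and mt-Ty and mt-Th do not. In all, 20 of the 35 genes exceeded 3 counts in at least 1 library, 15 did not, and 10 of these were at 0 in every library. The filter of at least 3 CPM in at least 3 libraries left 18 genes for testing, 7 mRNAs and 11 tRNAs, of which 4 tRNAs lie on the minus strand.

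**Figure D1:**
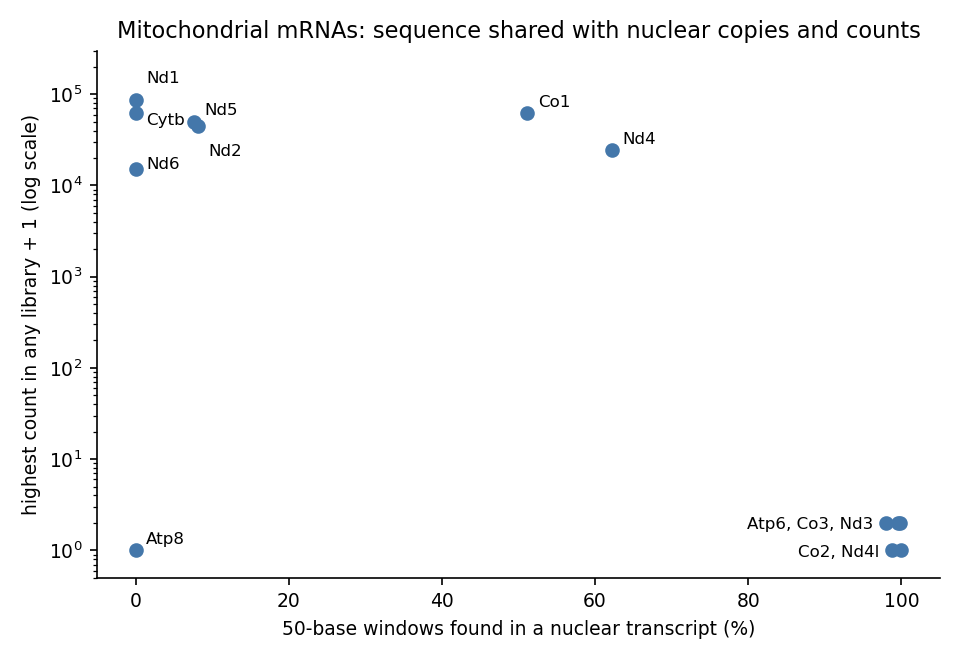
Share of 50-base windows of each of the 13 mitochondrial mRNAs that occur in an annotated nuclear transcript (x axis, %) against the highest count of the gene in any library plus 1 (y axis, log scale). The 5 genes with 97.99% or more of windows shared have a highest count of 1 or 0, and mt-Atp8 is at 0 with no shared window.

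How large a part of each library did these genes take? In the 4sU libraries, chromosome M held 5.70%, 6.51% and 5.56% of all counts in wild type and 5.35%, 5.67% and 4.69% in Dgcr8 KO. The genotypes overlapped (exact two-sided permutation test, p = 0.2, n = 3 against 3). This sum joins a fall and a rise. Plus-strand mRNAs held on average 5.72% of 4sU counts in wild type and 4.91% in Dgcr8 KO, and the minus-strand mRNA 0.173% and 0.281%. Neither of these shares overlapped between genotypes (exact permutation p = 0.1 for each). In the total libraries the share was 0.619%, 0.631% and 0.585% in wild type and 0.789%, 0.791% and 0.768% in Dgcr8 KO. Every Dgcr8 KO library lay above every wild-type library, with means of 0.783% and 0.612%, a 1.28-fold difference (exact p = 0.1, the smallest that 3 against 3 allows).

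**Figure D2:**
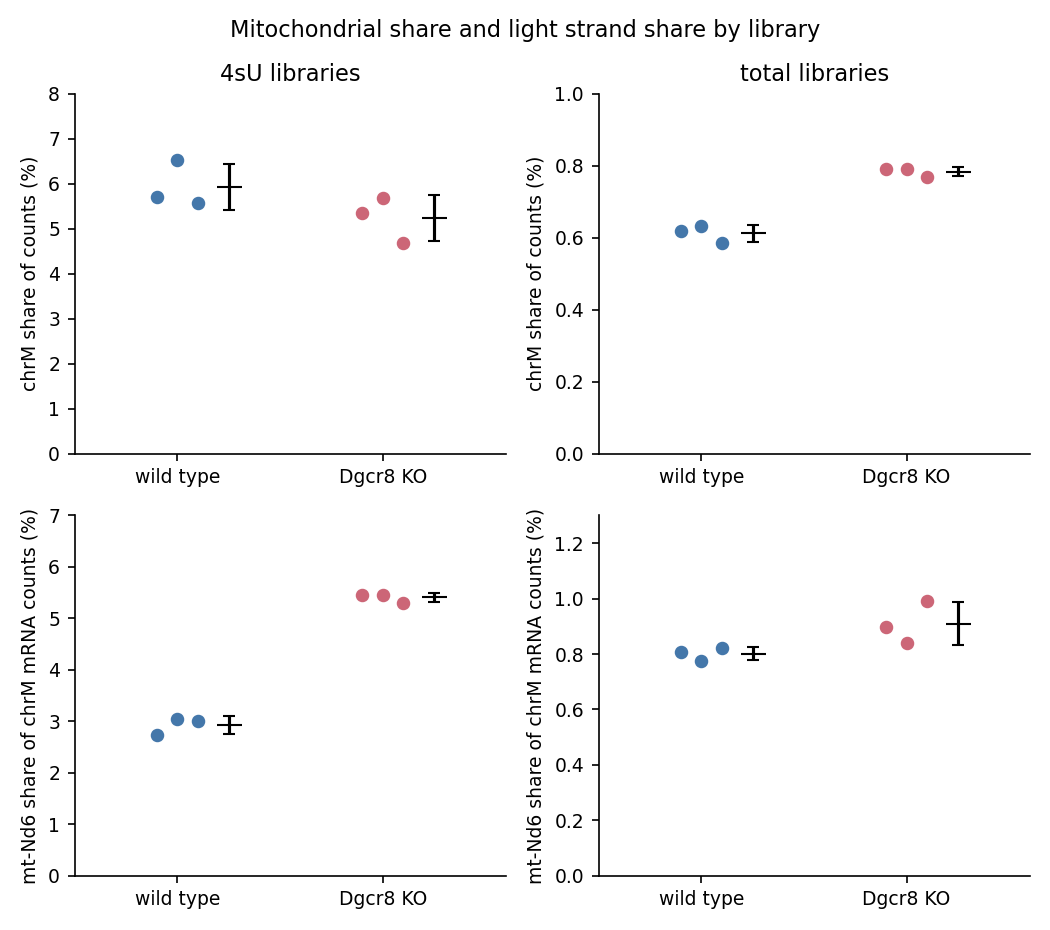
Each point is 1 library, with mean and SD (n = 3) beside the points, for wild type and Dgcr8 KO in 4sU libraries (left) and total libraries (right). The upper panels give the chromosome M share of all counts (%), and the lower panels the mt-Nd6 share of mitochondrial mRNA counts (%), which averages 2.93% in wild-type and 5.41% in Dgcr8 KO 4sU libraries.

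The mitochondrial share was thus much higher in captured than in total RNA. Total and 4sU libraries of the same number were taken as a culture, although their deviations from the group means correlated at only 0.0181 to 0.116. Within these pairs, the total share over the 4sU share was -3.20, -3.37 and -3.25 on the log2 scale in wild type and -2.76, -2.84 and -2.61 in Dgcr8 KO. This is a 9.67-fold excess in 4sU RNA in wild type and a 6.67-fold excess in Dgcr8 KO, with every knockout culture above every wild-type culture (difference 0.54 on the log2 scale, exact permutation p = 0.1, the smallest possible). The summed ratio depends on the genes summed. A second sum kept the tRNAs and the mRNAs that share at most 5% of their windows, mt-Nd1, mt-Nd6 and mt-Cytb. The excess was then 26.6-fold in wild type and 20.8-fold in Dgcr8 KO, and the difference between genotypes was 0.35. This sum leaves out mt-Co1, described next, together with mt-Nd2, mt-Nd4 and mt-Nd5, and mt-Co1 was not left out alone. With the same restriction the share in total RNA was 0.106% in wild type and 0.118% in Dgcr8 KO, a 1.12-fold difference. Captured and total RNA also differ in preparation, since only the total fraction is stated to have been depleted of rRNA, so turnover and preparation cannot be told apart in any comparison of the library types.

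mt-Co1, which encodes the catalytic subunit of complex IV, stood apart from the other mRNAs in the total to 4sU ratio (chromosome M, 5328 to 6872, plus strand). Its level in total RNA was 4659, 4880 and 4500 CPM in wild type, less than in 4sU RNA at 10014, 11331 and 10313 CPM but of the same order. Cytochrome b (mt-Cytb), which had a like 4sU level of 10110, 11305 and 9648 CPM, was at only 378, 356 and 341 CPM in total RNA. As a share of all mitochondrial mRNA counts, mt-Co1 rose from 18.7% ± 0.699 in 4sU to 71.1% ± 0.674 in total RNA of wild type, and from 19.0% ± 0.793 to 73.9% ± 0.29 in Dgcr8 KO (SD, n = 3; exact permutation p = 0.1 within each genotype, the smallest possible).

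Per gene, the log2 ratio of total to 4sU in wild type was -1.17 for mt-Co1 (SE 0.0426). It was -4.37 for mt-Nd1, -4.43 for mt-Nd5, -4.57 for mt-Nd4, -4.85 for mt-Cytb, -4.91 for mt-Nd2 and -4.97 for mt-Nd6, with SE of at most 0.102. All 7 mRNAs passed the call of an absolute log2 over 1 and a limma adjusted p under 0.05 in wild type, a call made downward for 25% of the 14033 genes tested. In Dgcr8 KO 6 of 7 passed it, against 27.1% of genes, and mt-Co1 at -0.63 (SE 0.0418) did not reach the limit on size although its adjusted p was 5.35e-15. For comparison, the median log2 ratio in wild type was 0.31 over 11877 nuclear protein-coding genes, whose lowest percentile lay at -2.93, and -2.72 over 1508 nuclear long non-coding genes. In the order of all genes tested in wild type, the 6 mRNAs other than mt-Co1 stood between the 0.0998 and the 0.413 percentile, and mt-Co1 at 22.5. A list of 89 tested nuclear genes of oxidative phosphorylation, which holds subunits of all complexes, cytochrome c and some assembly factors, had a median of 1.61 and ran from -3.26 to 2.66, with 77 genes higher and 10 lower in total RNA at an adjusted p under 0.05, against 44.3% and 39.3% of genes. In Dgcr8 KO its median was 1.35, with 75 genes higher and 11 lower, against 41.8% and 42% of genes.

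**Figure D3:**
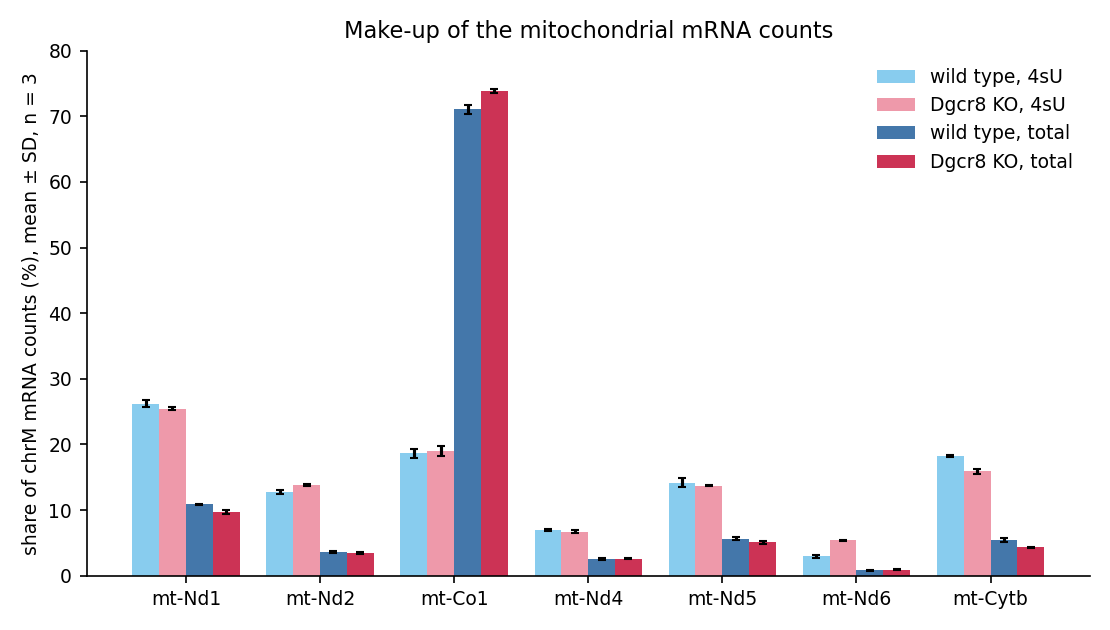
Mean share (%, ± SD, n = 3 libraries) of the mitochondrial mRNA counts held by each of the 7 countable mRNAs in the 4 groups. mt-Co1 holds 71.1% and 73.9% in total RNA and 18.7% and 19.0% in 4sU RNA, and each other gene holds less in total than in 4sU RNA.

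Levels of the mRNAs also differed from gene to gene within nascent RNA. Per kilobase of gene length, the wild-type 4sU level was highest for mt-Nd1, the first mRNA after the rRNA genes, at 15508 ± 1426 CPM per kb (SD, n = 3), and was 9051 ± 748 for mt-Cytb, 6977 ± 654 for mt-Nd2, 6830 ± 447 for mt-Co1, 4405 ± 509 for mt-Nd5, 3203 ± 399.7 for mt-Nd6 and 2887 ± 239 for mt-Nd4. mt-Nd2 and mt-Co1, and mt-Nd6 and mt-Nd4, differed by less than their spread. In total RNA the order per kb was led by mt-Co1 at 3029 ± 123, followed by mt-Nd1 at 748 ± 24.4, with mt-Nd6 lowest at 102 ± 1.56. The values of mt-Co1 and mt-Nd4 are the ones lowered by shared windows. Windows not shared were 731 of 1496 for mt-Co1 and 502 of 1329 for mt-Nd4, beside 908 of 989 for mt-Nd2 and 470 of 470 for mt-Nd6. The near ties in 4sU RNA are therefore not equal levels per countable window, and the places of mt-Co1 and mt-Nd4 in that order are understated.

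The tRNAs are counted here only as far as 50-base reads fall on genes of 59 to 75 bases, so a count may come from a mature tRNA or from the longer transcript around it. Their sequences are shown for the genes the results turn on, written as RNA with U, the base that 4sU can replace, in capitals.
mt-Tl1: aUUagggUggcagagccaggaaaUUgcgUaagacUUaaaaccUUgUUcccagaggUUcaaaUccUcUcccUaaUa
mt-Tm: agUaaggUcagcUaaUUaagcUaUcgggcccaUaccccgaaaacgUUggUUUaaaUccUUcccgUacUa
mt-Te: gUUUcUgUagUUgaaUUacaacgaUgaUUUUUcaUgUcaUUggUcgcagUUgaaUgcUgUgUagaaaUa
mt-Tp: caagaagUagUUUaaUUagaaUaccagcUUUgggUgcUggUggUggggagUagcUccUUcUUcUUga
mt-Tl1, a leucine tRNA (chromosome M, 2676 to 2750), directly follows the 16S rRNA gene mt-Rnr2, which ends at 2675, and directly precedes mt-Nd1. It held most tRNA counts in nascent RNA, with 1044, 1082 and 964 counts in the wild-type 4sU libraries against 5, 6 and 8 in the total libraries. The log2 ratio was -7.72 (SE 0.561) in wild type and -8.44 (SE 0.583) in Dgcr8 KO, the second value resting on 2, 9 and 9 total counts. As a share of tRNA counts, mt-Tl1 went from 56.6% ± 1.43 in 4sU to 4.8% ± 0.531 in total RNA of wild type (SD, n = 3). This is given with no test, since mt-Tl1 passed the filter through the 4sU libraries alone. Since the rRNA genes were left out of counting, a read running from mt-Rnr2 into mt-Tl1 counts for mt-Tl1 alone. Only the total fraction is stated to have been depleted of rRNA. How far such reads make up the counts and the ratio of mt-Tl1 was not tested.

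mt-Tm, the methionine tRNA (chromosome M, 3845 to 3913), was the other exception. It held 92, 77 and 94 counts in wild-type 4sU and 61, 100 and 99 in wild-type total libraries, and 67, 91 and 63 against 84, 77 and 75 in Dgcr8 KO. Its log2 ratio was -0.50 (SE 0.145, limma adjusted p = 0.00211) in wild type and -0.49 (SE 0.155, adjusted p = 0.00453) in Dgcr8 KO, and without Dgcr8 KO replicate 2 the second value was -0.36 with an adjusted p of 0.0858. In wild type mt-Tm held 4.83% ± 0.638 of tRNA counts in 4sU and 65.3% ± 7.26 in total RNA (SD, n = 3). Between mt-Tl1 and mt-Tm lay the other 9 tRNAs, with wild-type log2 ratios from -6.21 for the tryptophan tRNA mt-Tw to -3.53 for the alanine tRNA mt-Ta. These ends rest on few reads, with wild-type total counts of 4, 0 and 1 for mt-Tw and 3, 4 and 0 for mt-Ta. With each culture left out in turn, mt-Tw ranged from -7.20 to -5.36 and mt-Ta from -4.20 to -2.36. The 10 tRNAs other than mt-Tm passed the filter through the 4sU libraries only, being under 3 CPM in every total library, so an excess in 4sU was a condition of their entry and their ratios are given with no test. For mt-Tf, mt-Tq and mt-Te, the wild-type total libraries were all at or under 3 counts, so the excess in 4sU is at least 9.89-fold, 18.9-fold and 4.31-fold against that floor.

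**Figure D4:**
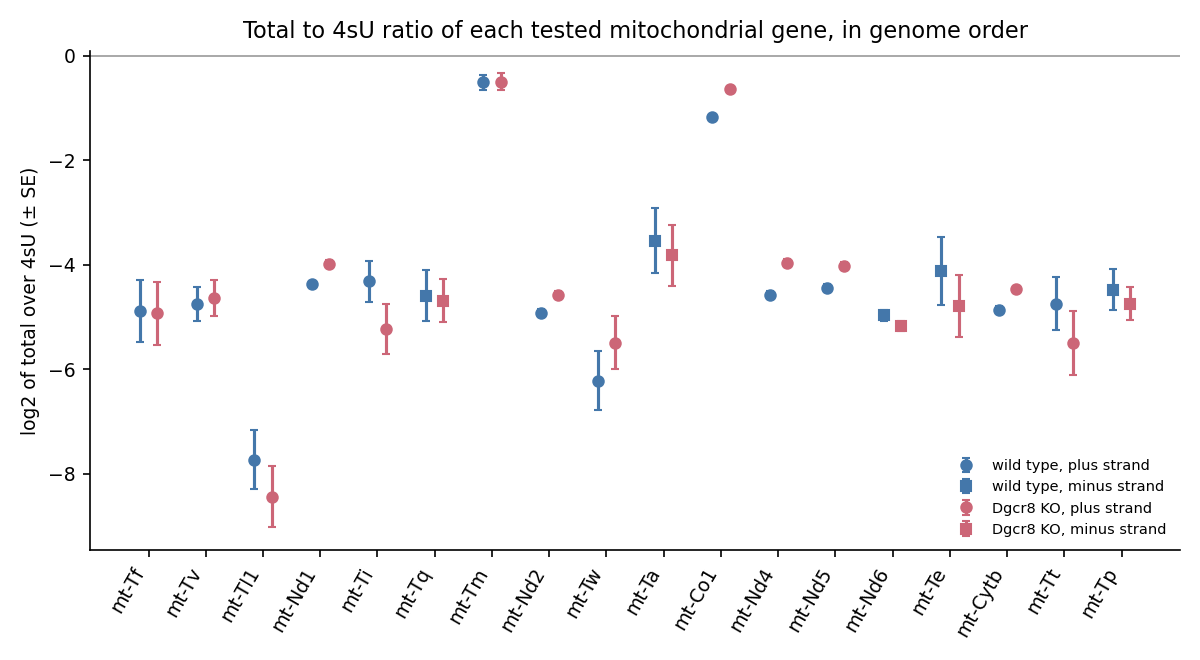
log2 of total over 4sU (± SE) for the 18 tested mitochondrial genes in genome order, in wild type and Dgcr8 KO, with circles for the plus and squares for the minus strand. mt-Tm at -0.50 and -0.49 and mt-Co1 at -1.17 and -0.63 lie highest, mt-Tl1 lowest at -7.72 and -8.44, and the plus-strand mRNAs are higher in Dgcr8 KO.

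Next, nascent RNA was compared between the genotypes, and the direction among the mRNAs differed between the single minus-strand gene and the others. mt-Nd6, the only mRNA of the minus strand and a subunit of complex I (chromosome M, 13552 to 14070), was at 1501, 1896 and 1590 CPM in the wild-type 4sU libraries and at 2766, 2925 and 2280 CPM in Dgcr8 KO. The groups did not overlap, and mt-Nd6 was higher in Dgcr8 KO by 0.68 ± 0.0643 in log2 (SE, adjusted p = 1.43e-10 by limma). Of the 6 plus-strand mRNAs, 5 fell at an adjusted p under 0.05, which was so for 28% of genes, and none rose. These mRNAs are made from the same strand, and among the 4sU libraries all 6 were lowest in Dgcr8 KO replicate 3. Their calls are thus not independent, here or in the other comparisons. mt-Cytb fell most, from 10110, 11305 and 9648 CPM to 8260, 8487 and 6676 CPM (-0.41 in log2, SE 0.0545, adjusted p = 1.26e-07). The falls were 0.28 for mt-Nd4, 0.25 for mt-Nd1, 0.25 for mt-Nd5 and 0.18 for mt-Co1 on the log2 scale, and the groups of mt-Nd4 and mt-Nd5 overlapped. By edgeR the adjusted p was 2.82e-05 for mt-Cytb, 0.00155 for mt-Nd4, 0.00632 for mt-Nd5, 0.00817 for mt-Nd1 and 0.0283 for mt-Co1. With each culture left out in turn, the log2 change ranged from -0.36 to -0.16 for mt-Nd4 and from -0.31 to -0.13 for mt-Nd1. The ranges were -0.34 to -0.14 for mt-Nd5, -0.23 to -0.11 for mt-Co1 and -0.47 to -0.29 for mt-Cytb. mt-Nd2, at -0.09 (SE 0.056), did not pass (adjusted p = 0.151), and without Dgcr8 KO replicate 3, the library with the lowest mitochondrial share of the 4sU set, its value was 0.02. No mRNA passed the limit on size, which 14.8% of genes did, by limma, edgeR or DESeq2, while 6 of 7 had an unadjusted p under 0.05, against 60.8% of genes.

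Of the 4 minus-strand tRNAs that passed the filter, mt-Tp and mt-Tq rose, mt-Ta did not pass the test, and mt-Te could only be described. The glutamic acid tRNA mt-Te, whose gene directly adjoins that of mt-Nd6, had 6, 7 and 15 counts in the wild-type 4sU libraries and 36, 30 and 31 in Dgcr8 KO, so the groups did not overlap. Its wild-type 4sU levels of 0.965, 1.46 and 2.67 CPM all lay under the filter of 3 CPM. It entered the fit through the Dgcr8 KO 4sU libraries alone, so its fitted log2 change of 1.95 (SE 0.377) is a description with no test. None of the other 10 tRNAs passed the limit on size, by which 9.5% of genes were called upward and 5.27% downward. The proline tRNA mt-Tp went from 131, 105 and 113 to 226, 249 and 173 counts (log2 change 0.97, SE 0.133, adjusted p = 2.25e-07), and the glutamine tRNA mt-Tq from 44, 39 and 40 to 59, 78 and 68 counts (0.83, SE 0.18, adjusted p = 0.000236). The alanine tRNA mt-Ta, at 15, 15 and 18 against 26, 21 and 19 counts, did not pass (log2 0.54, SE 0.336, adjusted p = 0.17). Of the 7 plus-strand tRNAs only mt-Tl1 passed, rising from 1044, 1082 and 964 to 1380, 1544 and 1094 counts, with overlap once scaled (0.47, SE 0.0954, adjusted p = 0.000109), and the others lay between -0.22 for mt-Tv and 0.34 for mt-Tw. Leaving mt-Te aside, 3 of 10 tRNAs rose at an adjusted p under 0.05, against 28.3% of genes. mt-Te fell below the filter on low counts when Dgcr8 KO replicate 1, 2 or 3 was left out, and without replicate 3 mt-Tp passed the limit on size at 1.16 (adjusted p = 5.87e-09). The asparagine tRNA mt-Tn and the cysteine tRNA mt-Tc, also of the minus strand, did not pass the filter. Their counts were 11, 4 and 5 against 14, 19 and 18 for mt-Tn and 3, 3 and 6 against 7, 8 and 9 for mt-Tc.

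Shares within chromosome M, which need no scaling between libraries, were compared as well. mt-Nd6 held 2.74%, 3.05% and 3.00% of mitochondrial mRNA counts in wild-type 4sU libraries and 5.46%, 5.46% and 5.30% in Dgcr8 KO, a 1.85-fold difference with no overlap (exact permutation p = 0.1, the smallest possible). In total RNA the shares were 0.806%, 0.775% and 0.823% against 0.898%, 0.84% and 0.992%, with no overlap (exact permutation p = 0.1). Minus-strand genes held 10.6% ± 1.18 of tRNA counts in wild-type and 16.3% ± 0.461 in Dgcr8 KO 4sU libraries (SD, n = 3, exact permutation p = 0.1). tRNAs as a whole held 0.582% ± 0.0421 of mitochondrial counts in wild-type and 0.87% ± 0.0372 in Dgcr8 KO 4sU libraries, and the order turned in total RNA, with 0.257% ± 0.0149 and 0.207% ± 0.011 (exact p = 0.1 for each). Without mt-Tf, mt-Tv and mt-Tl1, which border the rRNA genes, these shares were 0.163% and 0.262% in 4sU RNA. In total RNA they were 0.218% and 0.175%, so the wild-type share was then lower in 4sU than in total RNA. As a share of all counts in total libraries, plus-strand tRNAs were at 0.00139% in wild type and 0.00132% in Dgcr8 KO, with overlap. Minus-strand tRNAs were at 0.00018% and 0.000301%, without overlap.

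The transcripts of the minus strand also differ from the others in base composition, which the choice of strand did not use. mt-Nd6 RNA is 43.7% U and 28.1% G, whereas the 12 plus-strand mRNAs hold 27.4% to 32.8% U and 5.88% to 16.1% G. The median U content was 34.1% for the 8 minus-strand tRNAs and 28.7% for the 14 of the plus strand. The 3′ ends of mt-Nd5 and mt-Nd6 face each other and overlap, and the last 40 bases of each gene are printed from its own strand, with the shared stretch of 14 bases in capitals.
mt-Nd5: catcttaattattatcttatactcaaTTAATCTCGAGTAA
mt-Nd6: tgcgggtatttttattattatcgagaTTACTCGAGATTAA
Reads were counted by strand, so those over the shared stretch were assigned by their orientation. How much of the minus-strand signal could be plus-strand RNA read in the wrong orientation was not tested. The fall of mt-Nd5 and the rise of mt-Nd6 in nascent RNA of Dgcr8 KO do not bear on this, since these genes share only 14 bases.

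**Figure D5:**
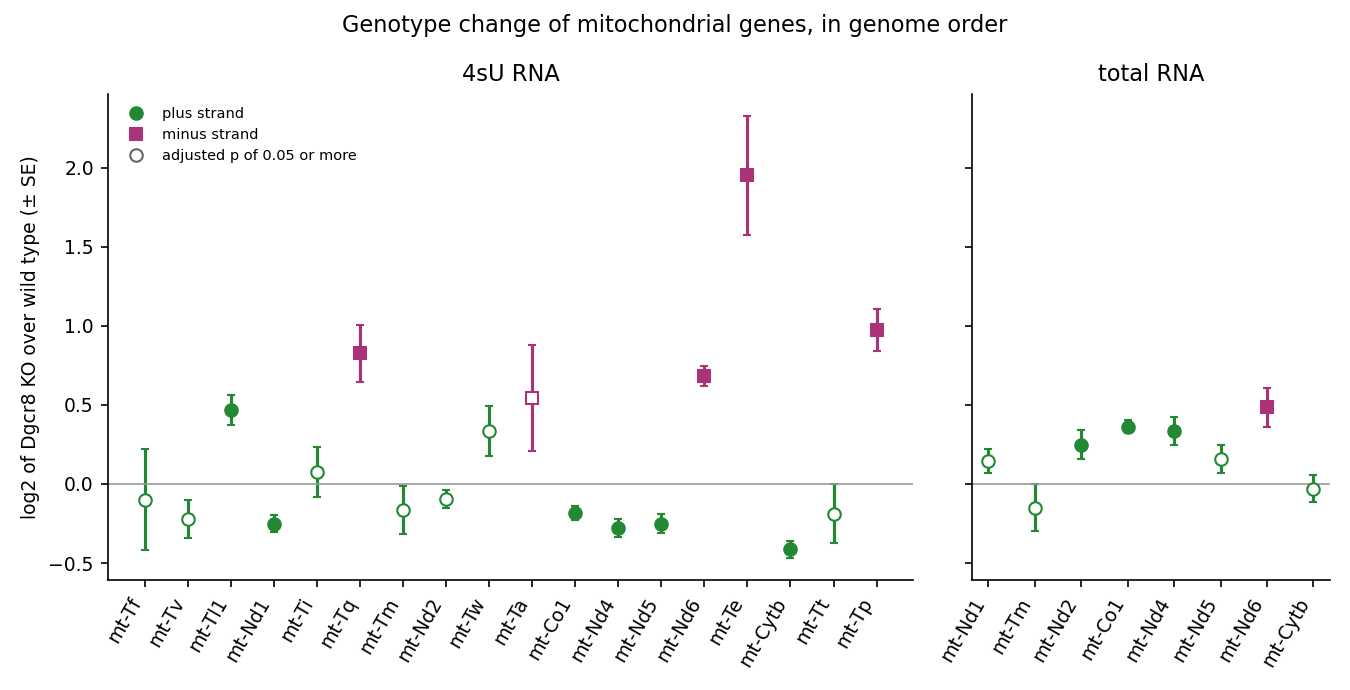
log2 change of Dgcr8 KO over wild type (± SE) in 4sU RNA for the 18 tested genes and in total RNA for the 7 mRNAs and mt-Tm, in genome order. Filled symbols have a limma adjusted p under 0.05, which for mt-Te is no test since its knockout libraries alone brought it past the filter. The minus-strand genes (squares) lie above 0 in 4sU RNA, from 0.54 for mt-Ta to 1.95 for mt-Te, and the plus-strand mRNAs below it.

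In total RNA, 4 of the 7 mRNAs were higher in Dgcr8 KO at an adjusted p under 0.05, which was so for 27.2% of genes (63.9% in either direction), and none was lower. mt-Nd6 rose from 53.4, 52.9 and 51.8 CPM to 73.6, 69.3 and 78.8 CPM (log2 change 0.48, SE 0.122, limma adjusted p = 0.000846). mt-Co1 rose from 4659, 4880 and 4500 to 6055, 6076 and 5896 CPM (0.36, SE 0.0427, adjusted p = 8.01e-09). mt-Nd4 rose from 174, 169 and 159 to 215, 213 and 203 CPM (0.33, SE 0.0892, adjusted p = 0.00156). The groups of all 3 genes were apart, but so were those of mt-Nd2, mt-Nd1 and mt-Nd5, and mt-Nd1 and mt-Nd5 did not pass the test. How many of all genes had groups apart was not counted. mt-Nd2 rose by 0.25 (SE 0.0925, adjusted p = 0.0194), a call lost without wild-type replicate 3 (0.17, adjusted p = 0.129) or without Dgcr8 KO replicate 1 (0.23, adjusted p = 0.0532). mt-Nd1 at 0.14 (SE 0.077), mt-Nd5 at 0.16 (SE 0.0896) and mt-Cytb at -0.03 (SE 0.0871) did not pass. mt-Cytb levels were 378, 356 and 341 CPM in wild type and 355, 358 and 337 CPM in Dgcr8 KO, with overlap. No mRNA passed the limit on size by limma, edgeR or DESeq2, which 17.2% of genes did by limma, while 4 of 7 had an unadjusted p under 0.05, against 66.8% of genes.

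The tRNAs, other than mt-Tm, held at most 20 counts each in any total library, and a difference of a single gene between genotypes was not detectable at this depth. None of 11 passed, nor had an unadjusted p under 0.05, and none was called by edgeR or DESeq2. Summed over genes, the minus strand held 15.1%, 7.19% and 12.1% of tRNA counts in wild-type and 18.4%, 17.04% and 20.3% in Dgcr8 KO total libraries, with no overlap (exact permutation p = 0.1, the smallest possible). As a share of all counts, minus-strand tRNAs were 1.67-fold higher in Dgcr8 KO total libraries, also without overlap. Few reads underlie both shares. mt-Tp held 10, 3 and 11 counts in wild-type and 12, 12 and 11 in Dgcr8 KO total libraries. No other minus-strand tRNA exceeded the 7 counts of mt-Tq in a Dgcr8 KO total library. mt-Tm, with 61 to 100 counts in the total libraries, changed by -0.15 (SE 0.149, adjusted p = 0.389) in total and by -0.16 (SE 0.151, adjusted p = 0.364) in 4sU RNA. When wild-type replicate 1 was left out, mt-Tw passed at a log2 of 1.98 (adjusted p = 0.02), from counts of 0 and 1 against 4, 4 and 1.

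Finally, the change in the total to 4sU ratio, which the study took as relative mRNA stability, was tested as the interaction of library type and genotype. All 6 plus-strand mRNAs rose at an adjusted p under 0.05, against 5.02% of genes, and mt-Nd6 did not. The 6 calls are not independent, since these mRNAs are made from the same strand. The ratio of mt-Nd4 rose from -4.51, -4.68 and -4.52 to -3.93, -4.14 and -3.82 on the log2 scale, a change of 0.61 (SE 0.106, limma adjusted p = 9.39e-05). That of mt-Co1 rose from -1.10, -1.22 and -1.20 to -0.66, -0.69 and -0.53, a change of 0.55 (SE 0.0597, adjusted p = 6.01e-08). For each of the 6 plus-strand mRNAs every knockout culture lay above every wild-type culture, and how many of all genes did so was not counted. The change was 0.41 for mt-Nd5 (SE 0.107, adjusted p = 0.00711), 0.39 for mt-Nd1 (SE 0.0943, adjusted p = 0.00325), 0.38 for mt-Cytb (SE 0.103, adjusted p = 0.00863) and 0.34 for mt-Nd2 (SE 0.108, adjusted p = 0.0264). The ratio of mt-Nd6 went from -4.81, -5.16 and -4.94 to -5.23, -5.40 and -4.85, with overlap (change -0.20, SE 0.138, adjusted p = 0.375), and without Dgcr8 KO replicate 3 it passed downward at -0.35 (adjusted p = 0.0457).

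None of these changes reached the limit of 1 on the log2 scale, by limma, edgeR or DESeq2, which 1.76% of genes passed, while 6 of 7 mRNAs had an unadjusted p under 0.05, against 28.2% of genes. The median over all genes was -0.09. mt-Nd2 lost its call without wild-type replicate 2 (0.31, adjusted p = 0.0587) or Dgcr8 KO replicate 1 (0.33, adjusted p = 0.0797), and mt-Cytb without wild-type replicate 2 (0.31, adjusted p = 0.0512). With no filter beyond 1 count, limma left 1 of the 6 calls, that of mt-Co1, in the ratio and 1 of the 4, again that of mt-Co1, in total RNA. The ratio changes that lost their call were then 0.62 for mt-Nd4, 0.42 for mt-Nd1, 0.41 for mt-Nd5, 0.42 for mt-Cytb and 0.35 for mt-Nd2. In total RNA they were 0.51 for mt-Nd6, 0.37 for mt-Nd4 and 0.29 for mt-Nd2. None of 11 tRNAs passed, nor had an unadjusted p under 0.05, nor was called by edgeR or DESeq2.

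Nuclear genes of oxidative phosphorylation were set beside these values. Of 89 tested, 62 fell and 3 rose in total RNA at an adjusted p under 0.05, against 36.7% and 27.2% of genes, with a median log2 change of -0.40 beside -0.09 over all genes. The 4 that also passed the limit on size, which 7.82% of all genes did downward, were Cox7b at -1.31, Ndufc1 at -1.27, Uqcrq at -1.19 and Ndufa2 at -1.04, named after their values were seen. In nascent RNA 45 fell and 3 rose, against 28% and 28.3% of genes, and in the total to 4sU ratio 13 fell and none rose, against 11.1% and 5.02%. The mitochondrial ribosomal proteins, which translate the mitochondrial mRNAs, gave 56 falls and 3 rises of 76 in total RNA, and 37 and 1 in nascent RNA, with medians of -0.45 and -0.26. These lists and the mitochondrial mRNAs come from the same libraries, and the difference between them was not tested.

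Of 48 nuclear genes listed for transcription, replication, processing, decay and tRNA maturation of the mitochondrial genome and for its regulation, 46 were tested, and 24 fell and 6 rose in total RNA at an adjusted p under 0.05, against 36.7% and 27.2% of all genes. Only Grsf1 was called upward with the limit on size, against 9.33% of genes, and only Tfam downward, against 7.82%. GRSF1 is a protein of the mitochondrial RNA granules that binds G-rich RNA of the light strand. It rose from 356, 358 and 367 to 831, 851 and 825 CPM in total RNA (log2 change 1.21, SE 0.0457, limma adjusted p = 1.26e-20) and from 240.5, 204 and 232 to 534, 542 and 541 CPM in 4sU RNA (1.26, SE 0.0533, adjusted p = 6.21e-19). TFAM packs mitochondrial DNA and takes part in the start of transcription. Its mRNA fell from 117, 119 and 111 to 59.0, 57.2 and 55.1 CPM in total RNA (-1.01, SE 0.0669, adjusted p = 1.54e-14) and by 0.70 on the log2 scale in 4sU RNA (SE 0.0753, adjusted p = 2.14e-09). The groups of both genes were apart in both kinds of library.

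The other transcription genes included Polrmt, the polymerase, at 44.8 ± 6.83 CPM in wild-type and 46.7 ± 3.75 CPM in Dgcr8 KO total RNA (SD, n = 3, limma adjusted p = 0.548). Tfb2m, which opens the promoter, was called upward in the total to 4sU ratio alone, by 1.05 (SE 0.295, adjusted p = 0.0125), from total levels of 2.34, 4.76 and 2.79 against 4.74, 7.01 and 5.05 CPM. This call was lost without wild-type replicate 1 (0.87, adjusted p = 0.0792) or Dgcr8 KO replicate 2 (0.87, adjusted p = 0.0845). Of 9 transcription genes tested, 5 fell and 1 rose in total RNA, against 36.7% of all genes lower and 27.2% higher.

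Among 6 replication genes 5 fell in total RNA, where 36.7% of all genes did. Polg2, the accessory subunit of the DNA polymerase, fell by 0.75 (SE 0.169, adjusted p = 0.000241), and the catalytic subunit Polg was at 174 ± 3.93 and 175 ± 7.34 CPM (SD, n = 3, limma adjusted p = 0.862). Of 11 processing genes 5 fell and 2 rose, near the 36.7% and 27.2% of all genes. Trmt10c, a subunit of the enzyme that cuts the 5′ ends of tRNAs, fell by 0.36 (SE 0.0723, adjusted p = 6.17e-05), and its partner Hsd17b10 was at 69.7 ± 4.15 and 76.7 ± 3.64 CPM (SD, n = 3, limma adjusted p = 0.086). Of 7 stability and decay genes 4 fell and 1 rose, beside 36.7% and 27.2% of all genes. SLIRP and LRPPRC form the complex that holds mitochondrial mRNAs in a stable form. Slirp fell from 67.8, 74.3 and 66.5 to 39.2, 38.9 and 34.6 CPM (-0.88, SE 0.0791, adjusted p = 2.21e-11), whereas Lrpprc was at 291 ± 3.91 and 288 ± 5.31 CPM (SD, n = 3, limma adjusted p = 0.856).

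Of 8 tRNA maturation genes 2 fell and 2 rose in total RNA, no more than the 36.7% and 27.2% of all genes. Trnt1, which adds the CCA end, was at 69.5 ± 5.19 and 66.6 ± 3.26 CPM, and Trmu, which thiolates tRNA, at 4.41 ± 0.415 and 6.34 ± 0.538 CPM (SD, n = 3, limma adjusted p = 0.444 and 0.0403). Of 5 regulators of mitochondrial gene programmes that were tested 3 fell and none rose, beside 36.7% and 27.2% of all genes, with Nrf1 at 78.3 ± 1.31 and 69.4 ± 5.05 CPM (SD, n = 3, limma adjusted p = 0.0395) and Gabpa lower by 0.31 on the log2 scale (SE 0.0503, adjusted p = 2.88e-06). Their part in the levels of the mitochondrial transcripts was not tested.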

How the data were processed

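Whole-number read counts per gene were deposited, which the authors made by trimming with Cutadapt 1.14, mapping uniquely with STAR 2.5.3a to mm10, and counting by strand with featureCounts 1.5.3 against GENCODE M14 without rRNA genes. Reads over 2 genes were not counted. Counts of 4593914 to 9295245 per library were scaled by TMM and fitted with limma 3.58.1 (voom, R 4.3.3) in 1 model of all 12 libraries, after the study's design. The filter, 3 CPM or more in 3 or more libraries, left 14033 genes. Calls required a log2 change beyond 1 in size together with a p under 0.05 after Benjamini-Hochberg adjustment. edgeR 4.0.16, DESeq2 1.42.0, other scalings and filters, replicate blocks and leaving out each culture were the alternatives. Shares were compared by exact permutation over libraries. Symbols and sequences came from GENCODE M21, also on mm10, and 51274 of 51559 identifiers matched. Scripts were tested on simulated data. Intervals were not given for shares, and the floor of 3 counts covers counting error only. The text names all mitochondrial mRNAs, the tRNAs past the filter, and the first 2 genes of each list of 48 nuclear genes with any called; further tRNAs were named after their values were seen. The members and lists were chosen with earlier results of these data known. Same-numbered wild-type and knockout libraries did not deviate together (correlations of -0.09 to 0.08), so no block was used. The labels say that each sample was split into both fractions, and same-numbered fractions correlated at 0.0181 to 0.116.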

Additional observations from a re-analysis of the deposited data

Results flagged for a closer look

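In 6 plus-strand mRNAs the genotype effect differed between total and 4sU RNA by the interaction test. The difference (total minus 4sU change, log2) was 0.39 for mt-Nd1, 0.34 for mt-Nd2, 0.55 for mt-Co1, 0.61 for mt-Nd4, 0.41 for mt-Nd5 and 0.38 for mt-Cytb. In 5 of these the fitted change was upward in total and downward in 4sU RNA, and in mt-Cytb it was downward in both (-0.03 and -0.41).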

How the results depend on the processing

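Of 1204 values of single genes under the alternatives, 1157 kept their direction and side of the threshold, 20 lost and 16 gained a call, and 11 turned direction. Without the limit on size, the calls numbered 4 mRNAs in total RNA, 6 mRNAs and 4 tRNAs in nascent RNA, and 6 mRNAs in the ratio change. Nascent tRNA calls past the limit on size, 1 (mt-Te, which entered through its knockout libraries) as fitted, numbered 2 with library size only, 3 with no filter beyond 1 count (15 tRNAs tested) and 0 with 3 CPM in all 12 libraries, where mt-Tm alone was tested and tRNA calls in the total to 4sU ratio were also 0 in either genotype. Leaving out 1 culture gave 0 to 1 tRNA calls in nascent and 0 to 1 in total RNA. Among the values that turned direction was mt-Cytb in total RNA, at 0.0017 with RLE factors, 0.0235 with library size only and 0.00902 with no filter (-0.0728 to 0.0077 on leaving out a culture). Another was mt-Tf in nascent RNA, at 0.0079 with the replicate block by number and 0.25 without Dgcr8 KO replicate 3 (-0.38 to 0.25). Leaving out a culture also turned mt-Nd2 (-0.16 to 0.0156) and mt-Tt (-0.36 to 0.11) in nascent RNA and mt-Tm in the ratio change (-0.16 to 0.16). The cause was not tested. With no filter, 9 values lost their call in limma. The replicate block by number, for which the numbers gave no sign of pairing, left each count of calls as it was and brought mt-Nd1 and mt-Nd5 in total and mt-Nd2 in nascent RNA under the adjusted p limit. Cultures as blocks changed no count. In exact permutation by paired sign flips of same-numbered libraries, whose smallest p is 0.25, the chromosome M share in total RNA was 0.171 percentage points higher in Dgcr8 KO (p = 0.25). In the total to 4sU ratio the median of all genes, 0.08 in wild type and 0.00 in Dgcr8 KO, shifted to -0.24 and -0.26 with upper quartile factors and to -0.39 and -0.48 with no filter. Depth limits the tRNAs: in total RNA each but mt-Tm held at most 20 counts.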
